A study of Ovis aries with 3 samples.

Results

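The let-7 family was described along the gut of sheep from counts of small RNA reads in 3 gut segments, the duodenum (named DU), cecum (named CE), and colon (named CO). Its members were the entries of the count files whose name begins with oar-let-7, which gave 7 of 822 entries, namely oar-let-7a, oar-let-7b, oar-let-7c, oar-let-7d, oar-let-7f, oar-let-7g, and oar-let-7i. All 7 members had reads in all 3 libraries, so that none was lost to a filter on low counts. The study profiled miRNAs in 3 segments of the intestine of the Small tailed Han sheep, sampled as mucosal epithelial tissue. Purebred ewes aged 11 months served as the source with no treatment named, and the RNA of the same 3 ewes was pooled per segment before 1 library per segment was made. The colon was sampled in its proximal part. There was no replicate library, so the spread between animals was not measured and no difference between libraries could be set against it. In tissue RNA of this kind, fewer cells of a type and less RNA per cell cannot be told apart.

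The let-7 family is among the oldest known miRNA families and is conserved across animals that develop with bilateral symmetry. A mature let-7 miRNA guides Argonaute to messenger RNAs that pair with its seed, the bases near its 5′ end, and lowers their translation and stability. Members share the seed and differ in the remaining bases and in the genes that encode them. Mature let-7 accumulates as cells differentiate, while the RNA-binding protein LIN28 blocks the maturation of let-7 precursors in stem and progenitor cells. Known targets include HMGA2, MYC, RAS, and IGF2BP messenger RNAs, and in the intestinal epithelium the balance of LIN28 and let-7 has been linked to growth and renewal of the crypts. None of these proteins or messenger RNAs was measured in these libraries.

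The mature sequences of the members are shown because the comparison of members rests on how far their reads can be told apart. Each is written 5′ to 3′ as in the count files, with the seed (bases 2 to 8) in capitals, and members are ordered by their level in DU.
oar-let-7a: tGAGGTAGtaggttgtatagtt
oar-let-7f: tGAGGTAGtagattgtatagt
oar-let-7g: tGAGGTAGtagtttgtacagt
oar-let-7i: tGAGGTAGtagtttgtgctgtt
oar-let-7b: tGAGGTAGtaggttgtgtggt
oar-let-7c: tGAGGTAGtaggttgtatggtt
oar-let-7d: aGAGGTAGtaggttgcatag

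The seed was the same in all 7 members. Of the first 20 positions, which every member covers, 14 held the same base in all members and 6 varied, namely positions 1, 12, 16, 17, 18, and 19. With positions counted from 1 at the 5′ end and oar-let-7a as the reference, oar-let-7c differed by A19G only and oar-let-7f by G12A only. The differences of oar-let-7b were A17G and A19G, and those of oar-let-7g were G12T and T18C. oar-let-7i was farthest from oar-let-7a, with G12T, A17G, T18C, and A19T. oar-let-7d differed by T1A and T16C, and was the only member with a difference at its 5′ base. The listed lengths were 20 nt for oar-let-7d, 21 nt for oar-let-7b, oar-let-7f, and oar-let-7g, and 22 nt for the others.

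These differences set how reads could be assigned. The authors kept clean reads of at least 18 nt, which had to match a precursor in full without mismatch. They also asked for at least 16 bases of a mature miRNA to be covered without mismatch. Among the 21 pairs of members, oar-let-7a and oar-let-7c were the 1 pair with the same first 18 bases, so that an 18-nt read from the 5′ end is shared by both. A run of 16 bases was shared by 4 pairs, which were the 3 pairs among oar-let-7a, oar-let-7b, and oar-let-7c, and the pair of oar-let-7g and oar-let-7i. How reads shared by several members were counted is not given in the sources used here. An 18-nt read from the 5′ end tells the members of these pairs apart, except oar-let-7a and oar-let-7c. Reads with another start could not be judged, since the precursors were not examined. Values of these 5 members are therefore uncertain where such short reads are concerned. They are also given below as sums over the members that share their first 16 bases.

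The count files added up to 13769740 to 15072945 reads per library, or 83.1 to 88.6% of the reads mapped to the genome. A normalized read below is a count divided by the reads of that library mapped to the genome, per 1000000, and 3 reads, the smallest number taken as visible, corresponded to 0.176 to 0.181 normalized reads. Every member was far above this floor, the lowest being oar-let-7d in CE with 18137 reads. Intervals are 95% intervals and cover counting error only, since there is no replicate library. They treat reads as independent, whereas reads amplified by PCR are not independent molecules, so they can be too narrow even for counting error. As a check of the labelled tissue, the epithelial list (miR-200a, miR-200b, miR-200c, miR-141, and miR-429) was detected with all 5 markers and summed to 28937, 24747, and 38944 normalized reads in DU, CE, and CO. The muscle and mesenchymal pair of miR-143 and miR-145 summed to 277873, 431721, and 401818 normalized reads, so that this list was more abundant than the epithelial list in every library. Nearly all of this sum was miR-143, with 275281, 429102, and 399239 normalized reads. miR-145 had 2591, 2619, and 2580 normalized reads and hardly moved. The enterocyte list (miR-192, miR-194, and miR-215) summed to 131211, 33664, and 11517 normalized reads, and its miR-192 entries are listed at 0 in CO, where the sum holds miR-194 and miR-215 alone. In DU, CE, and CO, miR-194 had 17964, 4382, and 6687 normalized reads and miR-215 had 55441, 435, and 4830. Both were lowest in CE, so that the sum was lower in CO than in CE only through miR-192. Whether the 0 of the miR-192 entries in CO is a level of this miRNA was not tested. For leukocytes 2 of 3 markers were matched to an entry, miR-142 and miR-150, which summed to 2175, 735, and 679 normalized reads. The enterocyte, leukocyte, and hepatocyte (miR-122) sums were all highest in DU, as let-7 was with the mapped reads. By contrast, the epithelial sum was highest in CO and the muscle and mesenchymal sum in CE. Markers of erythrocytes summed to at most 1.61 normalized reads. Each of these sums moved between the segments, and their part in the let-7 values was not tested.

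Summed over the 7 members, let-7 was most abundant in DU. The family had 1916511 reads in DU, 1420535 in CE, and 1424267 in CO, or 114529, 83534, and 85968 normalized reads. Of all reads mapped to the genome, let-7 made up 11.5% in DU (Wilson 95% interval 11.4 to 11.5%), 8.35% in CE (8.34 to 8.37%), and 8.60% in CO (8.58 to 8.61%). The family level was thus 1.37-fold lower in CE and 1.33-fold lower in CO than in DU, while CO and CE differed by 1.03-fold. The log2 ratio of the family was -0.46 from DU to CE (exact 95% interval -0.46 to -0.45), -0.41 from DU to CO (-0.42 to -0.41), and 0.04 from CE to CO (0.04 to 0.04). These intervals treat the reads of a pair of libraries as a binomial sample. Of the 28 known entries with at least 1000 normalized reads in every library, 21 are not let-7 members, and their median log2 ratio was -0.15, -0.02, and 0.06 in the same order.

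The size of the duodenal difference depended on what the reads were divided by. oar-miR-143, a miRNA known from smooth muscle and other mesenchymal cells, had the most reads in every library, with 275281 normalized reads in DU, 429102 in CE, and 399239 in CO. When its reads were left out of the reads mapped to the genome, a choice made after seeing the data, the remaining reads held 15.8% let-7 in DU (Wilson 95% interval 15.8 to 15.8%), 14.6% in CE (14.6 to 14.7%), and 14.3% in CO (14.3 to 14.3%). The family log2 ratios then were -0.11 from DU to CE and -0.14 from DU to CO. When all counted reads other than those of oar-miR-143 served as the library size, they were -0.09 and 0.03, so that the direction from DU to CO turned. This sum lacks the miR-192 entries in CO, which had 57806 and 28847 normalized reads in DU and CE. A change of library size shifts the log2 ratios of all entries alike, by 0.34 and 0.27 without oar-miR-143 in the mapped reads, by 0.37 and 0.45 without it in the sum of the counts, and by 0.12 and 0.16 with the TMM factors of edgeR (DU to CE and DU to CO). All clean reads in place of the mapped reads shifted them by 0.08 and 0.10. The position of let-7 relative to the other entries does not change with it, and whether the level of oar-miR-143 bears on that of let-7 was not tested. With the known entries other than oar-miR-143 and the family as the library size, also an alternative added later, the log2 ratios became -0.47 and -0.41, near those with all mapped reads. This size leaves out all predicted entries. It holds oar-miR-10a with 6130, 26739, and 17517 normalized reads in DU, CE, and CO, and oar-miR-10b with 2448, 26129, and 21198. oar-miR-148a, also in it, went the other way with 52980, 21043, and 34078.5. The 3 library sizes without oar-miR-143 thus did not share a value. Every member was computed under 7 library sizes, namely mapped reads and the sum of the counts, each with and without oar-miR-143, all clean reads, TMM, and the size factors of DESeq2. Over these, the family was lower in CE than in DU in all 7 and lower in CO than in DU in 6.

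**Figure D1:**
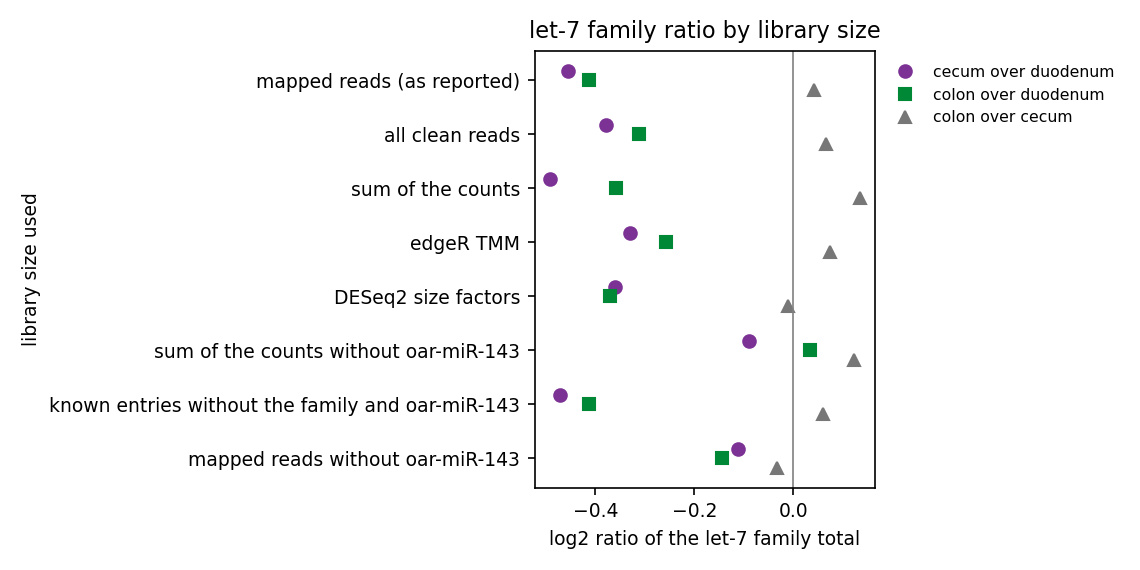
Log2 ratio of the let-7 family total between libraries (x axis) for each library size used to scale the reads (y axis), with circles for CE over DU, squares for CO over DU, and triangles for CO over CE (1 library per segment, no replicate). The ratios to DU were -0.46 and -0.41 with the reads mapped to the genome and were -0.11 and -0.14 without oar-miR-143 in them, -0.09 and 0.03 without it in the sum of the counts, and -0.47 and -0.41 with the known entries without it and the family, while the ratio of CO to CE stayed between -0.03 and 0.13.

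A pair of members carried most of the family in every library. oar-let-7a had 614326, 449390, and 513043 reads in DU, CE, and CO, or 36712, 26426, and 30967 normalized reads. oar-let-7f had 577278, 406238, and 419616 reads, or 34498, 23889, and 25328 normalized reads. Together they took 62.2%, 60.2%, and 65.5% of the family reads, and oar-let-7a stood at rank 7, 6, and 4 among all 822 entries. Both were lowest in CE under all 7 library sizes and highest in DU under the mapped reads, which turned in CO for oar-let-7a in 2 of 7 and for oar-let-7f in 1. In mammals both miRNAs are encoded by several hairpins, whose mature reads cannot be told apart.

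The next pair, oar-let-7g and oar-let-7i, shares the change G12T against oar-let-7a. oar-let-7g had 292301, 241268, and 202761 reads in DU, CE, and CO, or 17468, 14188, and 12239 normalized reads. oar-let-7i had 227851, 153673, and 127338 reads, or 13616, 9037, and 7686 normalized reads. In contrast to oar-let-7a and oar-let-7f, both were lowest in CO, again under all 7 library sizes. oar-let-7i stood at rank 8 in DU, rank 10 in CE, and rank 14 in CO among the known entries, those that carry a miRBase name.

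The remaining members were less abundant. oar-let-7b had 116012, 110431, and 98717 reads in DU, CE, and CO, or 6933, 6494, and 5959 normalized reads and the smallest log2 ratios to DU of any member under the mapped reads, which did not hold without oar-miR-143. oar-let-7c had 59532, 41398, and 40663 reads, or 3558, 2434, and 2454 normalized reads, at nearly the same level in both segments of the large intestine. oar-let-7d had 29211, 18137, and 22129 reads, or 1746, 1067, and 1336 normalized reads, and was the least abundant member in every library. The most abundant member exceeded the least abundant by 21.03-fold in DU, 24.8-fold in CE, and 23.2-fold in CO.

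**Figure D2:**
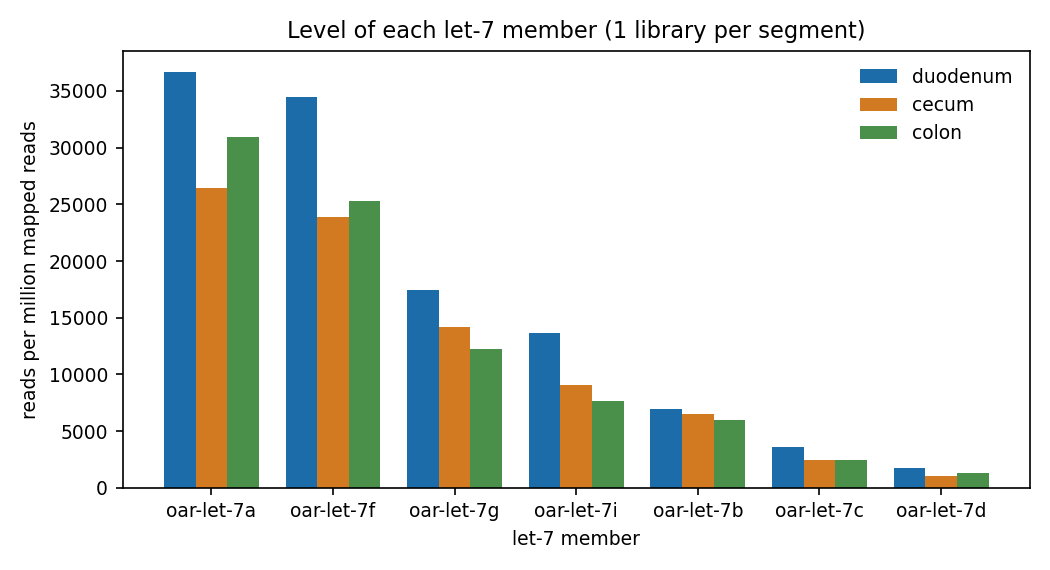
Reads per 1000000 mapped reads (y axis, from 0) of each let-7 member (x axis, ordered by DU) in DU, CE, and CO, 1 bar per library with no replicate. With the reads mapped to the genome as the library size all 7 members were highest in DU, oar-let-7a at 36712, whereas without oar-miR-143 in them oar-let-7a, oar-let-7b, and oar-let-7g were not, and the order from oar-let-7a to oar-let-7d was the same in the 3 libraries.

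The order of the members was the same in all 3 libraries, namely oar-let-7a, oar-let-7f, oar-let-7g, oar-let-7i, oar-let-7b, oar-let-7c, and oar-let-7d. Neighbours in this order differed beyond counting error in every library. The closest neighbours were oar-let-7a and oar-let-7f, with 1.06 reads of oar-let-7a per read of oar-let-7f in DU (exact 95% interval 1.06 to 1.07), 1.11 in CE (1.10 to 1.11), and 1.22 in CO (1.22 to 1.23). The distance between oar-let-7i and oar-let-7b narrowed instead, from 1.96 reads of oar-let-7i per read of oar-let-7b in DU (1.95 to 1.98) to 1.39 in CE (1.38 to 1.40) and 1.29 in CO (1.28 to 1.30). Whether such distances exceed the spread between animals could not be examined with 1 library per segment. Ligation and amplification efficiency differ between sequences, so an order of levels between miRNAs describes reads and not molecules.

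From DU to CE, all 7 members had lower normalized reads, with exceptions for oar-let-7b and oar-let-7g under other library sizes that are given below. The largest log2 ratios were those of oar-let-7d at -0.71 (exact 95% interval -0.74 to -0.68) and oar-let-7i at -0.59 (-0.60 to -0.58). oar-let-7c at -0.55, oar-let-7f at -0.53, and oar-let-7a at -0.47 lay close to each other. oar-let-7g at -0.30 and oar-let-7b at -0.09 (-0.11 to -0.08) differed least. The median over the members was -0.53, against -0.31 over the 348 entries compared, which are those that reach 1 normalized read in DU or CE, and 0.27 over the 93 known entries among them. A lower value in CE was found for 7 of 7 members, for 61.2% of the entries compared, and for 57.1% of the 21 abundant known entries outside the family. Over the 7 library sizes oar-let-7b was higher in CE than in DU in 4 and oar-let-7g in 2, whereas the other 5 members were lower in all 7.

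No member reached a fold change of 2 between DU and CE, while 41.7% of the entries compared, 21.5% of the 274 entries with 10 reads or more in each of DU and CE, and 19% of the 21 abundant known entries outside the family did. At a fold change of 1.5, 2 of 7 members passed, oar-let-7d with 1.64-fold and oar-let-7i with 1.51-fold, beside 62.4% of the entries compared. The call of oar-let-7i was lost with all clean reads, TMM, and the DESeq2 size factors, which left 1 member, and both calls were lost without oar-miR-143 in the mapped reads or in the sum of the counts, which left 0. Many of the entries past a fold of 2 had few reads, and 74 of the 348 had 0 reads in 1 library of the pair, so that the share over all entries does not describe entries as abundant as let-7. From DU to CE the family fell by 30996 normalized reads, of which oar-let-7f made up 34.2%, oar-let-7a 33.2%, oar-let-7i 14.8%, and oar-let-7g 10.6%. These shares hold for the mapped reads as the library size.

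From DU to CO, all 7 members were again lower in normalized reads, which 4 of them were not under every library size (below). Both comparisons share DU, so the pair of directions is not independent. oar-let-7i had the largest log2 ratio at -0.83 (exact 95% interval -0.83 to -0.82), followed by oar-let-7c at -0.54 (-0.55 to -0.52) and oar-let-7g at -0.51 (-0.52 to -0.51). oar-let-7f had -0.45, oar-let-7d -0.39, oar-let-7a -0.25, and oar-let-7b -0.22. Their median was -0.45, against -0.19 over the 363 entries compared and 0.22 over the 94 known entries among them. In all, 57% of the entries compared and 57.1% of the 21 abundant known entries outside the family were lower in CO. Over the 7 library sizes oar-let-7c, oar-let-7g, and oar-let-7i were lower in CO in all 7, oar-let-7d and oar-let-7f in 6, and oar-let-7a and oar-let-7b in 5.

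Between DU and CO, 0 of 7 members passed a fold change of 2, beside 39.9% of the entries compared, 17.7% of the 277 entries with 10 reads or more in each of DU and CO, and 9.52% of the abundant known entries outside the family. A fold change of 1.5 was passed by 1 of 7 members, oar-let-7i with 1.77-fold, beside 59% of the entries compared. This call was lost without oar-miR-143, where the log2 ratio of oar-let-7i was -0.55 with the mapped reads and -0.38 with the sum of the counts. With the mapped reads as the library size the family fell by 28561 normalized reads, of which oar-let-7f made up 32.1%, oar-let-7i 20.8%, and oar-let-7a 20.1%. Without oar-miR-143 in the sum of the counts the family and oar-let-7a were higher in CO, with log2 ratios of 0.03 and 0.20, and such shares do not apply.

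Within the large intestine the members divided. From CE to CO, oar-let-7d had a log2 ratio of 0.32 (exact 95% interval 0.30 to 0.35), oar-let-7a 0.23 (0.22 to 0.23), and oar-let-7f 0.08 (0.08 to 0.09). In the other direction, oar-let-7i had -0.23 (-0.24 to -0.22), oar-let-7g -0.21 (-0.22 to -0.20), and oar-let-7b -0.12 (-0.14 to -0.11). oar-let-7c had 0.01 (-0.01 to 0.03), and its difference was within counting error. Each of the 6 directions other than that of oar-let-7c held in all 7 library sizes, while oar-let-7c and the family total turned in 2 of 7. Of the higher members, oar-let-7a gained 4541 normalized reads, oar-let-7f 1439, and oar-let-7d 269. Of the lower members, oar-let-7g fell by 1949, oar-let-7i fell by 1351, and oar-let-7b fell by 535, so that the family total was 2434 normalized reads higher in CO. Higher values in CO were found for 4 of 7 members, for 54.3% of the 326 entries compared, and for 52.4% of the 21 abundant known entries outside the family. A fold change of 2 was passed by 0 of 7 members, 28.5% of the entries compared, 9.35% of the 278 entries with 10 reads or more in each of CE and CO, and 4.76% of the abundant known entries outside the family. At a fold change of 1.5 the count was 0 of 7 members beside 39.9% of the entries compared.

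**Figure D3:**
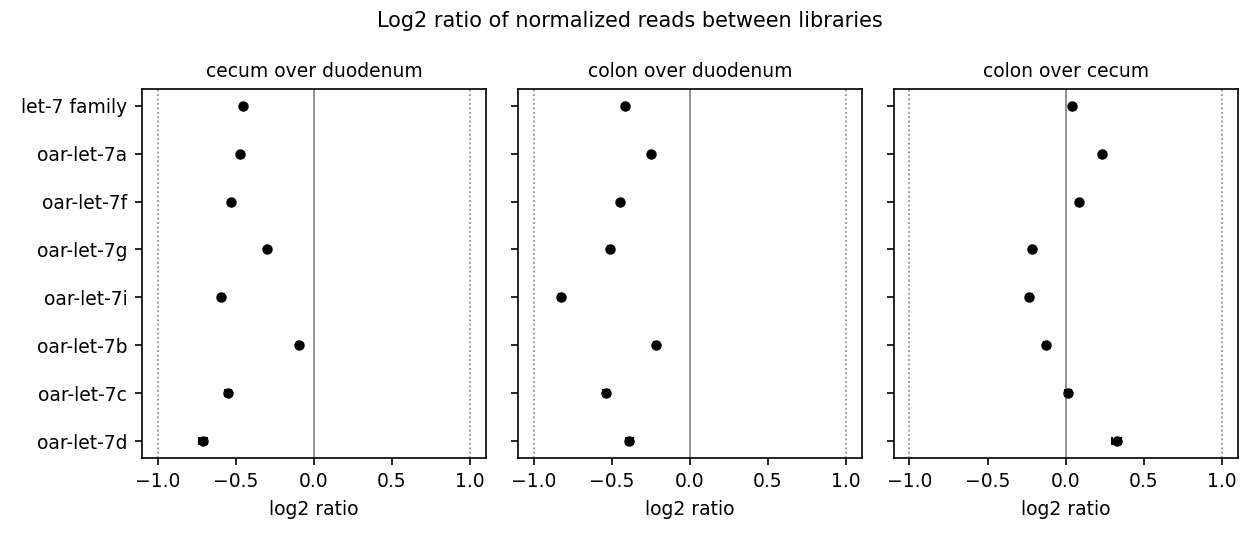
Log2 ratio of normalized reads (x axis) of the let-7 family and of each member (y axis) for CE over DU, CO over DU, and CO over CE, with exact 95% intervals for counting error that are mostly narrower than the points. Dotted lines mark a fold change of 2, which no member reached, and the members lie below 0, with exceptions under other library sizes, in both comparisons with DU and on both sides of 0 from oar-let-7d at 0.32 to oar-let-7i at -0.23 in the comparison of CO with CE.

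The make-up of the family does not depend on the library size, since each member is divided by the family reads of its own library. oar-let-7a held 32.1% of the family in DU (Wilson 95% interval 32.0 to 32.1%), 31.6% in CE (31.6 to 31.7%), and 36.0% in CO (35.9 to 36.1%). oar-let-7i took 11.9% (11.8 to 11.9%), 10.8% (10.8 to 10.9%), and 8.94% (8.89 to 8.99%). CO thus held more of oar-let-7a and less of oar-let-7i than both others. The difference of 4.39 percentage points for oar-let-7a from CE to CO was the largest change of any member between any pair of libraries.

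CE stood apart in other members. Of the family reads, oar-let-7g held 15.3% in DU (Wilson 95% interval 15.2 to 15.3%), 16.98% in CE (16.92 to 17.05%), and 14.2% in CO (14.2 to 14.3%). oar-let-7b held 6.05% (6.02 to 6.09%), 7.77% (7.73 to 7.82%), and 6.93% (6.89 to 6.97%). Both had their highest share in CE, where oar-let-7f had its lowest, with 30.1%, 28.6%, and 29.5% of the family. oar-let-7c held 3.11% (3.08 to 3.13%), 2.91% (2.89 to 2.94%), and 2.86% (2.83 to 2.88%), so that its share decreased in the order of the segments. oar-let-7d held 1.52% (1.51 to 1.54%), 1.28% (1.26 to 1.30%), and 1.55% (1.53 to 1.57%), lowest in CE.

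**Figure D4:**
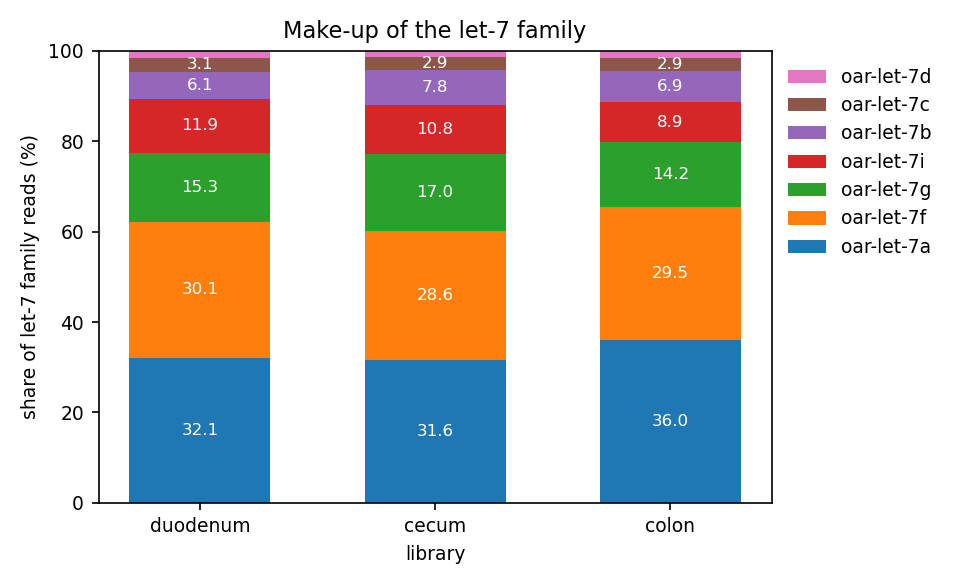
Share of the let-7 family reads (y axis, percent) taken by each of the 7 members in DU, CE, and CO (x axis), 1 library each. oar-let-7a widens from 32.1% in DU and 31.6% in CE to 36.0% in CO, while oar-let-7i narrows from 11.9% to 10.8% and 8.94%.

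Sums over the members that share their first 16 bases are not affected by how shared reads were split among these members, although a read counted for each of them would enter a sum more than once. oar-let-7a, oar-let-7b, and oar-let-7c together held 41.2% of the family in DU (Wilson 95% interval 41.1 to 41.3%), 42.3% in CE (42.2 to 42.4%), and 45.8% in CO (45.7 to 45.9%). oar-let-7g and oar-let-7i together held 27.1% (27.1 to 27.2%), 27.8% (27.7 to 27.9%), and 23.2% (23.1 to 23.2%). In CO the sum of a, b, and c thus held more of the family and the sum of g and i less. Within a, b, and c, only oar-let-7a had a higher share in CO than in CE, by 4.39 percentage points. oar-let-7b and oar-let-7c changed by -0.84 and -0.06 percentage points. From CE to CO their log2 ratios were 0.16 (exact 95% interval 0.15 to 0.16) for the sum of a, b, and c and -0.22 (-0.23 to -0.21) for the sum of g and i. The opposite directions of oar-let-7b and oar-let-7a, in contrast, lie within 1 such sum.

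Beyond the 7 members, 4 of the 676 predicted entries carried the same bases GAGGTAG at positions 2 to 8. They are shown because they differ from the members in the body of the miRNA or in length, with the seed in capitals.
novel_mir_194: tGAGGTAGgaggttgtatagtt
novel_mir_268: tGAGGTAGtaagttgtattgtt
novel_mir_54: tGAGGTAGtagattgtatagttg
novel_mir_210: tGAGGTAGtaggttgtatagttta

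novel_mir_268 is the same sequence as cattle bta-miR-98, and novel_mir_194 contains cattle bta-let-7e. Against oar-let-7a, novel_mir_194 differed by T9G and novel_mir_268 by G11A and A19T. novel_mir_54 and novel_mir_210 contain oar-let-7f and oar-let-7a, respectively, with added bases at the 3′ end. The 7 members held 98.8%, 98.7%, and 98.5% of the reads of all 11 entries with the seed in DU, CE, and CO. None of the 822 entries matched the 3p arm of a let-7 or miR-98 hairpin listed by the study, so that arms were not compared.

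The let-7e entry differed from the members in its pattern. novel_mir_194 had 13292, 11487, and 14776 reads in DU, CE, and CO, or 794, 675, and 892 normalized reads. Its log2 ratio was -0.23 from DU to CE (exact 95% interval -0.27 to -0.20), but 0.17 from DU to CO (0.13 to 0.20) and 0.40 from CE to CO (0.37 to 0.44). From DU to CE its direction turned without oar-miR-143, to 0.11 with the mapped reads and 0.13 with the sum of the counts. Of the 11 entries with the seed, it was the only one with its highest normalized reads in CO when the mapped reads were the library size. It was highest in CO under all 7 library sizes. Of the members, oar-let-7a was so under 2, and oar-let-7d and oar-let-7f under 1. For oar-let-7f the log2 ratio from DU to CO was then 0.0018 (exact 95% interval -0.0039 to 0.0075), within counting error. The miR-98 entry had 8485, 5128, and 5440 reads, or 507, 302, and 328 normalized reads, with log2 ratios of -0.75 (-0.80 to -0.70) and -0.63 (-0.68 to -0.58) to DU. novel_mir_54 had 118, 89.3, and 95.9 normalized reads and novel_mir_210 had 79, 51, and 47 reads, both highest in DU with the mapped reads as the library size. Other library sizes were not tried for these entries.

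The known entries whose pattern was most like that of the family were found by the distance of their log2 ratios from DU to CE and from DU to CO, among the 28 known entries with at least 1000 normalized reads in every library. Outside the family these were oar-miR-26a at a distance of 0.08, oar-miR-99a at 0.14, and oar-miR-191 at 0.23. oar-miR-26a had 42064, 29260, and 30630 normalized reads in DU, CE, and CO, with log2 ratios of -0.52 and -0.46 to DU. It lay as near to the family total as oar-let-7f, the nearest member, at a distance of 0.08. Members are themselves parts of that total, oar-let-7f with 28.6 to 30.1% of it, so their distances are partly built in. oar-miR-99a had 7518, 6018, and 5532 normalized reads, and oar-miR-191 had 4038, 2725, and 3481. The likeness rests on 3 libraries and is a description of these libraries. Among the members, oar-let-7b at 0.41 and oar-let-7i at 0.43 were farthest from the family total.

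**Figure D5:**
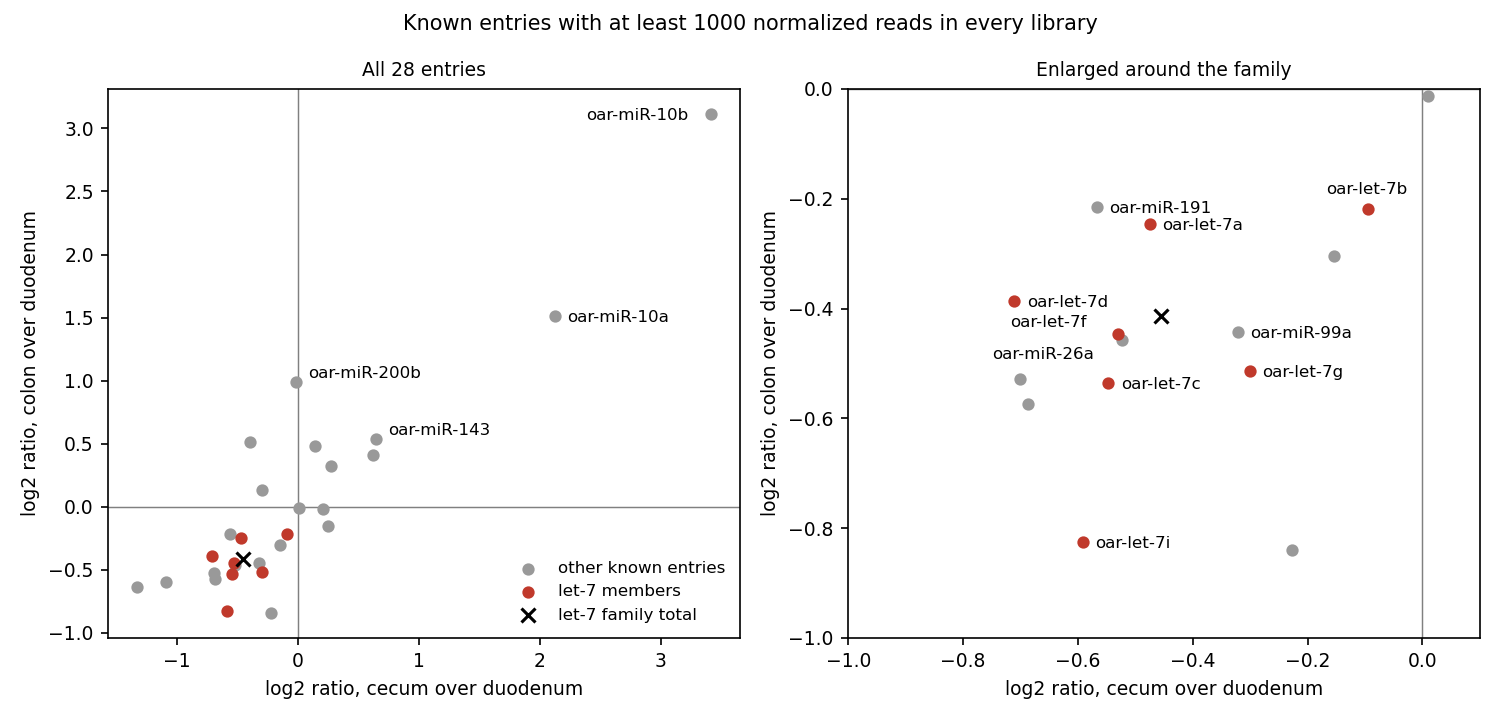
Log2 ratio of CE over DU (x axis) against CO over DU (y axis) for the 28 known entries with at least 1000 normalized reads in every library, on the left for all and on the right enlarged, with let-7 members in red, other entries in grey, and the family total as a cross. The family total lies at -0.46 and -0.41 with oar-miR-26a and oar-let-7f beside it, while oar-let-7i lies below it at -0.83 for CO over DU.

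Members with neighbouring genes were also set side by side. All 7 members were linked by name to a gene of the RefSeq annotation of the ARS-UI_Ramb_v3.0 assembly, which is not the Oar_v4.0 build used by the authors, so no coordinates are given. In that annotation, MIRLET7D and MIRLET7A follow each other directly, as do MIRLET7C and MIR99A. MIRLET7F comes after HUWE1 in the order of gene starts, MIRLET7G lies between WDR82 and PPM1M, and MIRLET7I lies before MON2. Of the neighbours oar-let-7a and oar-let-7d, both were lowest in CE and both were higher in CO than in CE, with log2 ratios of 0.23 and 0.32. This was not particular to neighbours, since oar-let-7f was also lowest in CE, with a log2 ratio of 0.08 from CE to CO. oar-let-7a had 21.03 reads per read of oar-let-7d in DU, 24.8 in CE, and 23.2 in CO. oar-let-7c and oar-miR-99a, a miRNA of another seed, were both lower in CE and CO, by -0.55 and -0.54 on the log2 scale for oar-let-7c and by -0.32 and -0.44 for oar-miR-99a. With the mapped reads all 7 members were lower in both, so this direction was not particular to oar-let-7c either. Without oar-miR-143 in the sum of the counts those of oar-miR-99a turned to 0.04 and to 0.01 (exact 95% interval -0.01 to 0.02), and without it in the mapped reads they were 0.02 and -0.17. There were 2.11 reads of oar-miR-99a per read of oar-let-7c in DU, 2.47 in CE, and 2.25 in CO.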

How the data were processed

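Small RNA of the duodenum (DU), cecum (CE), and colon (CO) of sheep was sequenced in 3 libraries, each from the pooled RNA of 3 ewes. The authors deposited the number of reads (raw counts) of each known and predicted miRNA per library. Per the study's methods, clean reads of at least 18 nt were mapped to the Oar_v4.0 genome with the SOAP aligner (version 2.21), whereas the labels name Bowtie. Known miRNAs were assigned by BLAST against miRBase 21.0, where a read had to lie fully within a precursor and cover at least 16 bases of the mature miRNA without mismatch, and further entries were predicted with miReap. Short reads that fit several members can move counts between them.

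The raw counts were divided by the reads mapped to the genome, as the study gives them for each library, and multiplied by 1000000 (normalized reads). The methods name clean reads as the divisor, which was tried as an alternative. Entries were compared if they had at least 1 normalized read in either library, and 0 was set to 0.01. Folds of 2 and 1.5 were counted without a test, since there is 1 library per segment and a p-value would cover counting error only. Ratios have exact (Clopper-Pearson) 95% intervals and shares Wilson 95% intervals. Depth was 13769740 to 15072945 counted reads per library, and 3 reads were taken as the floor. Alternatives were other library sizes, including the TMM factors of edgeR and the size factors of DESeq2, other filters, a fold of 2 with a corrected Audic-Claverie value, and other denominators for shares.

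Named entries were the 7 members, predicted entries with GAGGTAG at positions 2 to 8 and at least 10 reads in 1 library, predicted entries that are let-7 or miR-98 3p arms (0 were found), and, outside the family, the 3 known entries with at least 1000 normalized reads in every library nearest to the family total by the distance of both log2 ratios to the DU library. Predicted entries were named by the listed miRNA with the longest shared run of at least 16 bases, with names and sequences from the study's supplement, a wider match than the identity first planned, which had missed miR-142, and no value was taken from it. Marker lists were enterocyte, epithelium, smooth muscle and mesenchyme, striated muscle (miR-133 and miR-206, at 279 to 564 normalized reads in sum), leukocyte, erythrocyte, and hepatocyte (miR-122, at 16.5 to 130 normalized reads). The members and lists were chosen with earlier results of these data known, and the sums over members with the same first 16 bases were added after seeing the data. The scripts were tested on simulated data. Python 3.11.15, numpy 2.4.6, pandas 2.3.3, scipy 1.17.1, matplotlib 3.10.9, R 4.3.3, edgeR 4.0.16, and DESeq2 1.42.0 were used.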

Additional observations from a re-analysis of the deposited data

How the results depend on the processing

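The order of the members within a library and their shares of the family do not depend on the library size, whereas the ratios between libraries do. For the family, the log2 ratios from DU to CE, from DU to CO, and from CE to CO were -0.38, -0.31, and 0.067 with all clean reads, -0.49, -0.36, and 0.13 with the sum of the counts, -0.33, -0.26, and 0.074 with edgeR's TMM, -0.36, -0.37, and -0.010 with DESeq2's size factors, and -0.090, 0.034, and 0.12 with the sum of the counts without oar-miR-143. With the mapped reads without oar-miR-143 they were -0.11, -0.14, and -0.032, and with the known entries without the family and oar-miR-143 -0.47, -0.41, and 0.060, both chosen after seeing the data. Without oar-miR-143 in the sum of the counts, the log2 ratio from DU to CO turned to 0.20 for oar-let-7a, 0.23 for oar-let-7b, and 0.061 for oar-let-7d, and that from DU to CE to 0.27 for oar-let-7b and 0.065 for oar-let-7g. Without it in the mapped reads, the ratio from DU to CO turned to 0.025 for oar-let-7a and 0.052 for oar-let-7b, and that from DU to CE to 0.25 for oar-let-7b and 0.044 for oar-let-7g. With TMM, oar-let-7b turned to 0.030 from DU to CE. These turns follow from the division by a smaller or larger number, and which library size is right was not tested. Members past a fold of 1.5 in place of 2 numbered 2, 1, and 0, and 0, 0, and 0 without oar-miR-143 in the mapped reads or in the sum of the counts. In the same order, the entries past a fold of 2 numbered 340, 339, and 258 of 593, 607, and 548 without a filter, and 59, 49, and 26 of 274, 277, and 278 where each library of a pair had to hold 10 reads or more, both more than 1.5 times away from the counts behind the shares given above. The largest change of a share was 4.24 percentage points with all entries of the seed as the denominator, against 4.39. No paired analysis was possible because the labels give no replicate numbers and there is 1 library per segment, and for the same reason no replicate could be left out. A ratio of 5p to 3p arms was not run, since no entry matched a 3p arm. With at least 18137 reads per member, counting error was small, and the spread between ewes was not measured.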
